A study of Mus musculus with 8 samples.

Results

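The 10 genes that encode the latent transforming growth factor-β (TGF-β) binding proteins, the 3 TGF-β ligands and their 3 receptors (*Ltbp1* to *Ltbp4*, *Tgfb1* to *Tgfb3* and *Tgfbr1* to *Tgfbr3*) were taken by symbol from the 45583 gene symbols counted in ovaries of juvenile mice. All 10 were measured and all 10 passed the filter on low counts. The set was chosen by measured values of the comparison of GOAT KO with WT, namely the log2 fold change, p value and separation of the groups of *Ltbp1*. The differences in expression between these groups are therefore given for the 10 genes as a description. Where the fit across all genes calls some of them, the count stands beside the share of all genes, and nothing is read from it.

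The libraries came from ovaries of female mice on a C57/Bl6 background that were 3 weeks old, 4 labelled WT and 4 labelled GOAT KO, with 1 whole ovary per animal. The WT and GOAT KO animals were littermates of heterozygous parents, and the labels name no treatment for either group. *Mboat4* is the gene of GOAT (ghrelin-O-acyltransferase), which attaches the acyl chain to the stomach hormone ghrelin. Total RNA was sequenced as single reads of 50 bp, and each library is named by the number in its label.

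The counts on genes summed to between 16147216 and 19481798 per library. *Mboat4* had counts of 1, 1, 1 and 3 across WT 1118, 1119, 1120 and 1121, while GOAT KO 1139, 1140, 1141 and 1146 held 5, 7, 7 and 8. These counts are higher in the libraries labelled GOAT KO, against the direction of the label, so the groups are named below as they were labelled and every direction rests on those labels. Markers of the tissue were present in every library: the 7 granulosa cell markers summed to 4795 to 6020 CPM (read counts scaled to a common library size) and the 6 oocyte markers to 634 to 780 CPM, against 5.33 to 11.97 CPM for the 5 oviduct markers. GOAT KO 1139 stood apart in the 6 adipose tissue markers, with 327 CPM against 8.73 to 21.999 CPM in the other libraries. Values are also given for 6 libraries, without GOAT KO 1139 and WT 1120, since the study left out 1 library of each group and earlier results of these data pointed to this pair.

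TGF-β is secreted as a latent complex, in which the cleaved propeptide of the ligand still encloses the growth factor. A latent TGF-β binding protein (LTBP) is linked to this complex inside the cell and anchors it to fibrillin microfibrils of the extracellular matrix, from which integrins, proteases or thrombospondin release the ligand. The free ligand joins the kinases TGFBR2 and TGFBR1, which phosphorylate SMAD2 and SMAD3, while TGFBR3 (betaglycan) presents ligand to them and also binds inhibin. In the ovary, granulosa, theca and stromal cells make and receive TGF-β.

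By the mean level per length, the binding proteins *Ltbp3* and *Ltbp4* were highest, and the groups lay apart without overlap in 1 of the 10 genes. Libraries labelled GOAT KO had 32.1% more *Ltbp1* than those labelled WT, with no overlap between the groups. *Tgfb1* was lower by 18.3% on average, with overlapping groups, and the other 8 genes differed by less than 0.15 on the log2 scale. A gene counts as called here where edgeR's quasi-likelihood test gave an unadjusted p under 0.05 and the absolute log2 fold change was over 0.3, the wider filter that the study used. By this rule 1 of the 10 genes, *Ltbp1*, was called, beside 2.85% of the 16601 genes tested (1.58% higher and 1.27% lower in GOAT KO).

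At an adjusted p under 0.05 edgeR and limma-voom each called 0 of the 10 genes, beside 0.0241% of all genes tested, and DESeq2 called 1, beside 0.0784%. At an unadjusted p under 0.05 edgeR passed 2 of the 10, beside 4.62% of all genes. One of the 10 genes had all its GOAT KO libraries above all its WT libraries and 0 had them below, beside 1.64% and 1.27% of all genes tested. With 6 libraries the rule again called 1 of the 10 genes, beside 4.77% of 16641 genes. The median log2 fold change was -0.0074 over the 10 genes and -0.00035 over all genes tested.

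**Figure D1:**
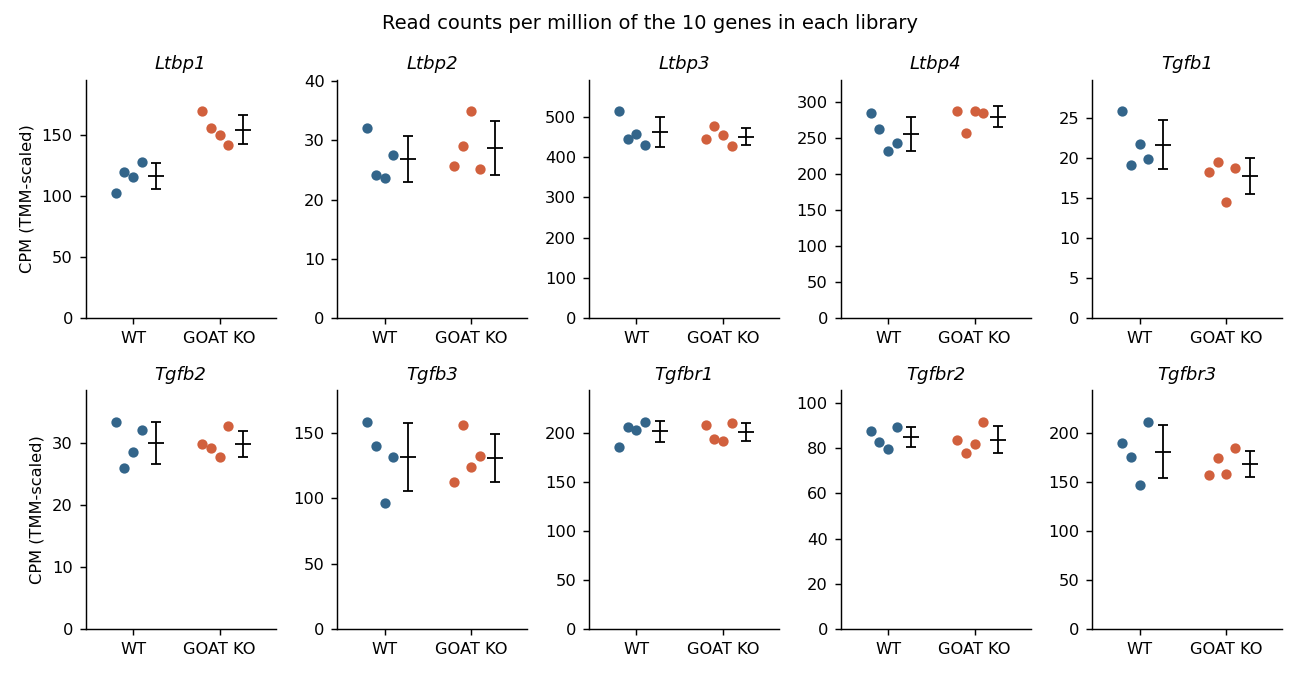
TMM-scaled CPM (y axis, starting at 0) of each gene in the 4 libraries labelled WT (blue) and the 4 labelled GOAT KO (orange), with the mean and SD of each group in black. *Ltbp1* lies between 103 and 128 CPM in WT and between 142 and 170 CPM in GOAT KO, and the groups of the other 9 genes overlap.

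*Ltbp1* (chr17:75005568-75392512, plus strand, GRCm38) encodes the binding protein that was first purified with latent TGF-β and has a long and a short form from separate start sites. The libraries WT 1118, 1119, 1120 and 1121 held 1665, 2167, 2114 and 2353 raw counts, and GOAT KO 1139, 1140, 1141 and 1146 held 2845, 2554, 2932 and 2441. In CPM, with the library sizes corrected by the TMM method, this was 103, 120, 116 and 128 CPM in the 4 WT libraries, and 170, 156, 150 and 142 CPM among those labelled GOAT KO, in the same order. Every GOAT KO library lay above every WT library, and the narrowest gap was between WT 1121 and GOAT KO 1146. The means were 117 ± 10.5 CPM in WT, against 155 ± 11.96 CPM in GOAT KO (SD, n = 4 each), a log2 fold change of 0.40 (SE 0.078).

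The highest *Ltbp1* value belonged to GOAT KO 1139, the library with the raised adipose markers, and the lowest to WT 1118. GOAT KO 1139 also had the most *Cyp17a1*, an enzyme of androgen synthesis in theca cells (601 CPM, against 355 CPM in WT 1120 and 42.4 to 138 CPM elsewhere), and the most *Star*, which brings cholesterol into mitochondria (234 CPM, against 8.14 to 31.9 CPM elsewhere). The other theca and steroidogenic markers were mixed in this library. *Lhcgr* was highest there (37.3 CPM) and *Nr5a1* lowest (184 CPM), while *Cyp11a1*, *Hsd3b1* and *Insl3* lay within the range of the other libraries. The 7 markers summed to 3349 CPM, against 3371 CPM in WT 1120. Without GOAT KO 1139 the log2 fold change of *Ltbp1* was 0.35, without WT 1118 it was 0.35, and over the 8 fits that leave out 1 library it ran from 0.35 to 0.45. With 6 libraries it was 0.35 (SE 0.079). Since every GOAT KO library lay above every WT library, leaving libraries out could not turn the direction. These fits show only how its size varied. A whole ovary holds many cell types, and in such bulk RNA fewer cells of a type and less RNA per cell cannot be told apart. The summed markers of stromal fibroblasts (6 genes) ranged from 1519 to 1803 CPM in WT and from 1582 to 1775 CPM in GOAT KO, and those of smooth muscle and pericytes (6 genes) from 717 to 808 CPM and from 697 to 904 CPM. Markers of granulosa cells summed to 4795 to 5872 CPM in WT, against 5395 to 6020 CPM in GOAT KO. Of these 7 genes 5 had a fold above 0 and 2 below, and 2 were called, beside 2.85% of all genes tested: the FSH receptor *Fshr* (0.47, SE 0.161, and 0.68 with 6 libraries) and the estrogen-forming enzyme *Hsd17b1* (0.31, SE 0.121, and 0.42 with 6 libraries), both higher in GOAT KO with an adjusted p of 0.983 from edgeR. The hormone gene *Amh* (-0.21, SE 0.110) and the transcription factor *Foxl2* (-0.17, SE 0.189) had folds below 0 and were not called. None of the genes of these 3 lists was at 0 in all libraries, and the part of cell makeup in the *Ltbp1* values was not tested.

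The annotation gives *Ltbp1* 10 transcripts, and RefSeq holds promoters for its upstream and its downstream start site. They are printed here because the junction reads below bear on the upstream one. Each runs from 250 bases before to 50 bases after the start, on the plus strand of GRCm38.p6, with matches of the SMAD element CAGACA (either strand, so also TGTCTG) in capitals. The first lies at chr17:75005279-75005578 and the second at chr17:75178531-75178830.
Ltbp1, upstream start: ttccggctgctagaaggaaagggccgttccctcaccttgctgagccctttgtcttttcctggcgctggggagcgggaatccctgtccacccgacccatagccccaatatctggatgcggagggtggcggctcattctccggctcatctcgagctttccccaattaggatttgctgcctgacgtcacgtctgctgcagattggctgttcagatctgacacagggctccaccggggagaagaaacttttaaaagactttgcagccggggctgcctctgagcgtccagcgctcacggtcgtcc
Ltbp1, downstream start: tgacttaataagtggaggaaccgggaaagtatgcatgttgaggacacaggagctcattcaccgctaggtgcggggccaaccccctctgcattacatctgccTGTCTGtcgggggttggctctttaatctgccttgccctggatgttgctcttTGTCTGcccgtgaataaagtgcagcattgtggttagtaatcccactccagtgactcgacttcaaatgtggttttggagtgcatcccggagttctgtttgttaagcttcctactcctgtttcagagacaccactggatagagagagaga
The upstream promoter was 58.7% GC with 17 CpG dinucleotides and held none of the 3 motifs searched, which were the SMAD element, the GC box GGGCGG and the TATA box TATAAA. The downstream promoter was 50.0% GC with 7 CpG dinucleotides and held the SMAD element at 2 places. Over all 32851 promoters of the same length, the median GC content was 52.7%, and the SMAD element was present in 21.04%, the GC box in 35.7% and the TATA box in 13.6%. A match describes the letters and is not a measured binding site.

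Junction reads, which the aligner reported where a read spans an intron, showed transcription from the upstream start of *Ltbp1*. The first intron after it (chr17:75006362-75007330) was crossed by 1, 3, 4 and 8 reads in the WT libraries, and by 4, 8, 7 and 3 in those labelled GOAT KO. This intron belongs to upstream-start transcripts, so these were present in all 8 libraries. The intron at chr17:75066203-75151264, also upstream of the second start, was listed in 6 libraries with 15 to 24 reads each. The donor at position 75179205, which serves transcripts of both starts, was listed with 3 reads in WT 1118 alone, so these reads do not measure how the 2 starts were shared. A junction that a library's file does not list was treated as missing and not as 0.

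Of 43 junctions seen in *Ltbp1*, 18 were listed in all 8 libraries, and all 18 are annotated introns. Scaled to the counts on genes of each library (junction RPM), they summed to 17.2, 19.1, 15.95 and 21.9 RPM in WT and 25.9, 24.2, 24.7 and 22.9 in GOAT KO. The means were 18.6 ± 2.61 and 24.4 ± 1.22 RPM (SD, n = 4), and the groups did not overlap. The GOAT KO mean was higher at 16 of the 18 junctions and lower at 2, with a ratio of GOAT KO to WT from 0.981 to 2.34 and a median of 1.35. These reads are part of the reads counted on the gene, so they describe where along *Ltbp1* the difference lay and are no second measurement of it.

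**Figure D2:**
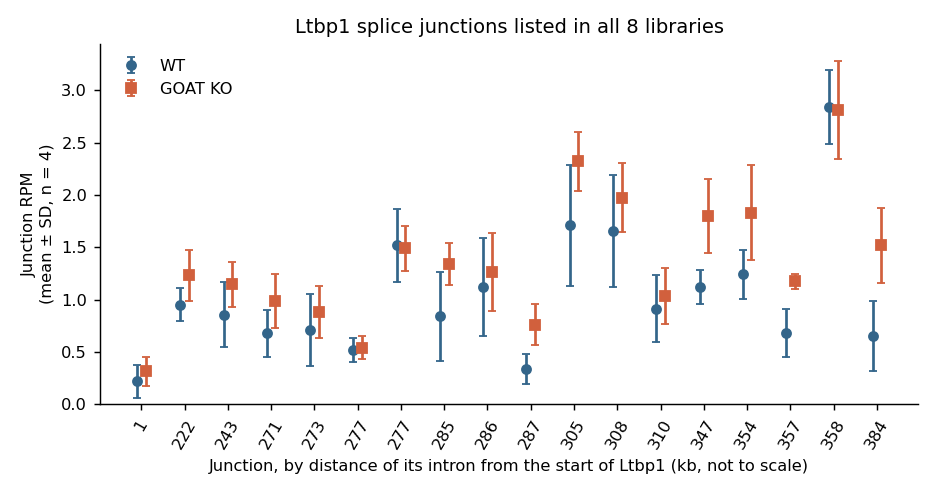
Junction RPM, the junction reads scaled to the counts on genes (y axis, mean ± SD over 4 libraries) for the 18 introns of *Ltbp1* listed in all 8 libraries, ordered along the gene by the distance of the intron from the gene's start in kb (x axis, evenly spaced and not to scale). The GOAT KO mean (orange squares) lies above the WT mean (blue circles) at 16 of the 18 introns, from the first intron to the last.

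*Ltbp3* (chr19:5740904-5758532, plus strand) encodes a binding protein that forms covalent complexes with latent TGF-β, as LTBP1 does. It had 515, 446, 458 and 429 CPM in the 4 WT libraries, and 446, 477, 454 and 427 CPM among those labelled GOAT KO. The groups overlapped, and WT 1118 was the highest library. The means were 462 ± 37.2 and 451 ± 20.6 CPM, a log2 fold change of -0.035 (SE 0.068).

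*Ltbp3* was also the one gene of the 10 in which a choice between 2 splice junctions could be followed in every library. The acceptor at position 5757310 was joined from introns that start at 5757176 (242 reads in all) and at 5756932 (810 reads), the arrangement of an exon that is either included or skipped. The share of the less used junction was 20.5, 34.8, 18.6 and 22.2% in the 4 WT libraries, and 20.6, 21.01, 22.5 and 25.2% among those labelled GOAT KO. All libraries except WT 1119 lay between 18.6 and 25.2%. The means were 24.1 ± 7.35% and 22.3 ± 2.09% (SD, n = 4), a difference that did not exceed the spread of the libraries (two-sided exact permutation test, p = 0.914, smallest possible 0.0286). Of 32 pairs of junctions with at least 20 reads each in the 10 genes, it was the 1 pair listed in all 8 libraries.

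*Ltbp4* (chr7:27305136-27337692, minus strand) encodes a binding protein of elastic fibers with a lower affinity for latent TGF-β. It had 285, 262, 232 and 243 CPM in the 4 WT libraries, and 288, 257, 287 and 284 CPM among those labelled GOAT KO. WT 1118 lay above GOAT KO 1140, so the groups overlapped. The means were 256 ± 23.1 and 279 ± 14.6 CPM, a log2 fold change of 0.13 (SE 0.072), which was 0.069 with 6 libraries.

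*Ltbp2* (chr12:84783212-84876532, minus strand) encodes the family member that binds fibrillin but not latent TGF-β. It had 32.1, 24.2, 23.7 and 27.5 CPM in the 4 WT libraries, and 25.7, 29.1, 35.0 and 25.2 CPM among those labelled GOAT KO. The groups overlapped, and its spread of 14.4% (WT) and 15.7% (GOAT KO) of the mean was the widest among the binding proteins. The log2 fold change was 0.098 (SE 0.126), which was 0.19 without WT 1118 and -0.016 without GOAT KO 1141.

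Among the binding proteins, *Ltbp1* made up a larger part of the total in GOAT KO. This share is formed from the *Ltbp1* values by which the set was chosen, so it is no separate result. Expressed as the share of the summed level per length of the 4 genes, *Ltbp1* held 8.43, 10.8, 10.8 and 11.96% in the 4 WT libraries, and 14.1, 13.2, 12.5 and 12.4% among those labelled GOAT KO. The groups did not overlap, although WT 1121 and GOAT KO 1146 lay close to each other. The share of *Ltbp3* was 48.6 ± 1.63% in WT and 44.8 ± 1.84% in GOAT KO, and that of *Ltbp4* was 37.7 ± 1.39% and 39.0 ± 2.09%. The shares of the 4 genes sum to the whole, so they do not vary independently.

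*Tgfb1* (chr7:25687002-25705077, plus strand) encodes the ligand best known from platelets, immune cells and fibrosis. It had 26.0, 19.2, 21.8 and 19.95 CPM in the 4 WT libraries, and 18.2, 19.5, 14.5 and 18.8 CPM among those labelled GOAT KO. GOAT KO 1140 lay above WT 1119, so the groups overlapped, and WT 1118 and GOAT KO 1141 were the extremes. The means were 21.7 ± 3.03 and 17.8 ± 2.24 CPM, a log2 fold change of -0.29 (SE 0.121). It was -0.20 without WT 1118 and -0.21 without GOAT KO 1141, and -0.30 with 6 libraries.

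Leukocyte markers had lower sums on average in the group with the lower *Tgfb1*, and the groups overlapped. The 7 markers summed to 85.0 to 111 CPM in WT, against 64.3 to 86.9 CPM in GOAT KO, and none of them was at 0 in all libraries. All 5 that could be tested had a fold below 0. Of these, 2 were called, beside 2.85% of all genes tested, and the rest were not. *Lyz2*, a lysozyme of macrophages and other myeloid cells, fell by 0.52 (log2, SE 0.128) and *Adgre1*, the macrophage antigen F4/80, fell by 0.36 (SE 0.114). Both had every GOAT KO library below every WT library, beside 1.27% of all genes tested. Their unadjusted p values from edgeR's test were 0.00188 and 0.00930, and neither passed after adjustment. The part of these cells in the *Tgfb1* values was not tested.

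*Tgfb2* (chr1:186622792-186705989, minus strand) encodes a ligand whose propeptide lacks the integrin-binding sequence of TGF-β1 and TGF-β3. It had 33.4, 25.9, 28.5 and 32.1 CPM in the 4 WT libraries, and 29.7, 29.1, 27.6 and 32.6 CPM among those labelled GOAT KO. All 4 GOAT KO libraries lay inside the range of WT, and the log2 fold change was -0.010 (SE 0.092).

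*Tgfb3* (chr12:86056745-86079041, minus strand) was the most abundant ligand. It had 159, 140, 96.0 and 131 CPM in the 4 WT libraries, and 112, 156, 124 and 132 CPM among those labelled GOAT KO. WT 1120 and GOAT KO 1139 were the lowest libraries of their groups. The means were 131 ± 26.2 and 131 ± 18.4 CPM, a log2 fold change of -0.0046 (SE 0.141), and its coefficient of variation of 19.9% in WT was the widest of the 10 genes.

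*Tgfbr1* (chr4:47353222-47414931, plus strand), the type I receptor kinase, had the narrowest error of the 10 genes. It had 186, 205, 203 and 211 CPM in the 4 WT libraries, and 208, 194, 192 and 210 CPM among those labelled GOAT KO, so that GOAT KO lay within the range of WT. The log2 fold change was -0.0025 (SE 0.059).

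*Tgfbr2* (chr9:116084293-116175360, minus strand), the type II receptor kinase that binds the ligand first, had 87.7, 82.7, 79.7 and 89.6 CPM in the 4 WT libraries, and 83.9, 77.8, 81.9 and 91.9 CPM among those labelled GOAT KO. The groups were interleaved, and the log2 fold change was -0.018 (SE 0.066).

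*Tgfbr3* (chr5:107106570-107289629, minus strand), the co-receptor betaglycan, had 190, 176, 147 and 212 CPM in the 4 WT libraries, and 157, 175, 159 and 185 CPM among those labelled GOAT KO. GOAT KO lay within the wider range of WT. The log2 fold change was -0.10 (SE 0.103), and it was -0.16 with 6 libraries, -0.021 without WT 1121 and -0.19 without WT 1120.

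**Figure D3:**
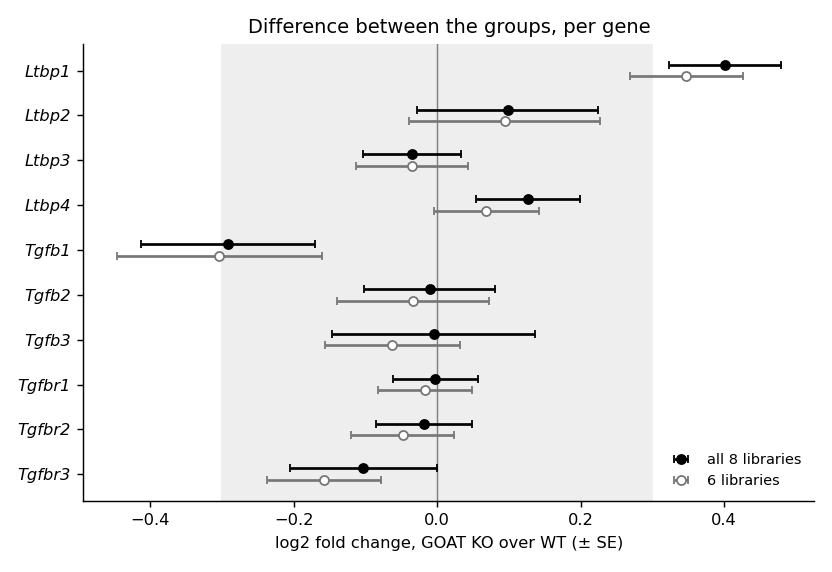
Log2 fold change of GOAT KO over WT (x axis) with its standard error for each of the 10 genes, from all 8 libraries (black) and from 6 libraries without WT 1120 and GOAT KO 1139 (open grey). The shaded band spans -0.3 to 0.3, the size used in the call rule. *Ltbp1* lies to its right at 0.40 and 0.35, *Tgfb1* lies at its left edge at -0.29 and -0.30, and the other 8 genes lie inside it.

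Levels of different genes were compared per length, as CPM divided by the kilobases of merged exons (RPKM), over the 8 libraries together. Neighbours in the order within each role were compared by an exact sign-flip permutation test over the 8 libraries, two-sided, with p adjusted over the neighbours of each role. These levels played no part in choosing the genes. They depend on the length: with the longest transcript in place of merged exons, the mean over the libraries moved by more than 1.5 times for 3 genes, to 20.4 RPKM for *Ltbp1*, 79.7 RPKM for *Ltbp3* and 7.67 RPKM for *Tgfb1*.

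Among the binding proteins *Ltbp3* was highest, with 50.3 ± 3.14 RPKM (SD over 8 libraries). *Ltbp4* followed with 41.4 ± 3.38 RPKM, then *Ltbp1* with 12.7 ± 2.12 RPKM and *Ltbp2* with 3.40 ± 0.491 RPKM. *Ltbp3* exceeded *Ltbp4* by 1.22-fold, *Ltbp4* exceeded *Ltbp1* by 3.29-fold and *Ltbp1* exceeded *Ltbp2* by 3.73-fold, each in 8 of 8 libraries (exact permutation, adjusted p = 0.0078 for each, the smallest that 8 libraries allow). The order of the 4 genes was thus the same in every library, with *Ltbp1* between *Ltbp4* and *Ltbp2* in both groups.

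Of the ligands, *Tgfb3* made up most of the ligand transcript, with 80.0 ± 3.33% of the summed RPKM in WT and 81.6 ± 2.10% in GOAT KO. It stood at 38.8 ± 6.19 RPKM, against 5.16 ± 0.449 RPKM for *Tgfb2* and 3.92 ± 0.646 RPKM for *Tgfb1*. *Tgfb3* exceeded *Tgfb2* by 7.45-fold and *Tgfb2* exceeded *Tgfb1* by 1.33-fold, both in 8 of 8 libraries (exact permutation, adjusted p = 0.0078). The second of these turned with the length used: per base of the longest transcript in place of merged exons, *Tgfb1* was above *Tgfb2* (log2 ratio of *Tgfb2* over *Tgfb1* -0.38).

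Among the receptors *Tgfbr1* had 30.8 ± 1.45 RPKM, *Tgfbr3* 26.7 ± 3.20 RPKM and *Tgfbr2* 10.3 ± 0.6001 RPKM. *Tgfbr1* exceeded *Tgfbr3* by 1.16-fold, in 6 of 8 libraries (exact permutation, adjusted p = 0.03125), and the adjusted p was 0.0625 in 6 of 8 refits with 1 library removed. *Tgfbr3* exceeded *Tgfbr2* by 2.58-fold in 8 of 8 libraries (adjusted p = 0.0156, exact permutation).

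Across roles, the ranges over the 8 libraries of *Ltbp4* (35.96 to 44.5 RPKM), *Tgfb3* (28.4 to 46.9 RPKM) and *Tgfbr1* (28.4 to 32.3 RPKM) overlapped from each gene to the next. *Tgfbr3* (22.5 to 32.4 RPKM) lay above *Ltbp1* (9.65 to 15.9 RPKM) in all libraries. *Ltbp1* overlapped with *Tgfbr2* (9.50 to 11.2 RPKM) in the WT libraries, where it had 9.65 to 11.999 RPKM, and lay above it in GOAT KO, where it had 13.3 to 15.9 RPKM. *Tgfb1* (2.87 to 5.15 RPKM) and *Ltbp2* (2.90 to 4.27 RPKM) overlapped at the low end. Both overlaps depended on the length used: per base of the longest transcript, *Ltbp1* (15.5 to 25.5 RPKM) lay above *Tgfbr2* (9.61 to 11.4 RPKM) in both groups, and *Tgfb1* (5.63 to 10.09 RPKM) above *Ltbp2* (3.50 to 5.17 RPKM). The neighbours across roles were not tested.

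**Figure D4:**
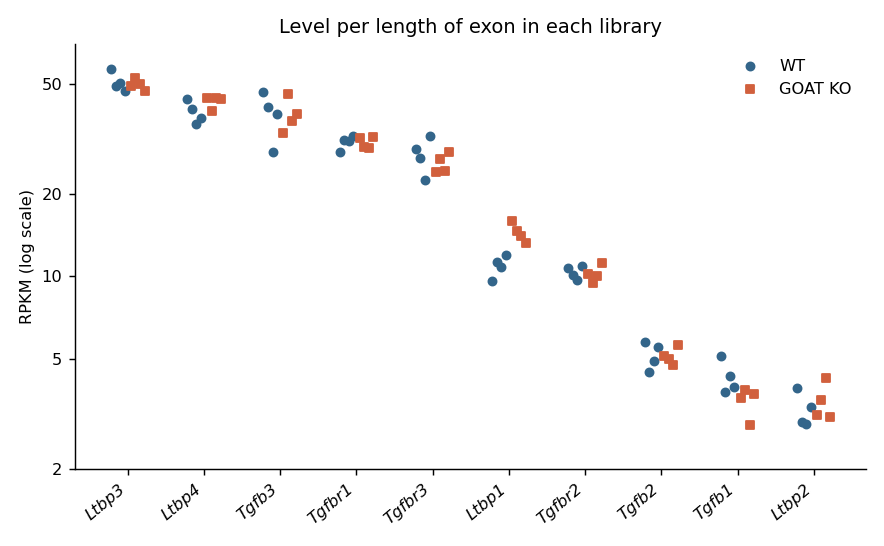
RPKM over merged exons (y axis, log scale) of the 10 genes in each of the 4 WT libraries (blue circles) and 4 GOAT KO libraries (orange squares), ordered by the mean over all 8. *Ltbp3* is highest at 47.1 to 56.8 RPKM and *Ltbp2* lowest on average at 2.90 to 4.27 RPKM, and *Ltbp1* is the gene whose groups separate.

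How the 10 genes varied together within the groups was described by Pearson's r of log2(CPM + 0.5) over the 8 libraries, after the mean of each group was taken away. All points share the libraries and their composition, so no test is given. Of the 45 pairs, 27 had an r above 0, and the median was 0.17. The highest was 0.73, between *Tgfb2* and *Tgfbr2*, and the lowest -0.91, between *Ltbp3* and *Tgfbr1*. *Ltbp1* had an r of 0.61 with *Tgfbr1* and an r from -0.54 to -0.055 with the other 8 genes. By the same measure, the 5 most similar of 15458 genes to *Ltbp1* were *Emid1* (0.96), *RP24-338C23.2* (0.96), *Melk* (0.96), *Mrpl44* (0.94) and *Cyp7b1* (0.94). The highest of 15458 values of r over 8 libraries can be this high without a shared pattern, so nothing is read from them.

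Promoters of 8 of the 10 genes were matched in RefSeq, 12 in all, and those of *Tgfb3* and *Tgfbr3* are not among them. They differed widely in base composition, from 48.0% GC with 3 CpG dinucleotides at *Ltbp3* (chr19:5740650-5740949) to 81.3% GC with 39 at *Ltbp4* (chr7:27333614-27333913). The GC box was found in the promoters of *Ltbp2* (2 matches), *Tgfb1* (6 matches), in 1 of those of *Tgfbr1* (2 matches) and in the 3 of *Ltbp4* (3, 7 and 9 matches). The SMAD element was found in those of *Ltbp1* (the downstream one), *Ltbp3*, *Tgfb2* and the second of *Tgfbr1*. The promoter of *Tgfb2* also held the TATA box. Whether a motif goes with a difference between the groups was not tested.

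The other genes of the pathway were taken from 4 lists and tested in the fit across all genes. Of 73 listed genes 72 could be tested, and 1 was called (*Col1a1*, higher in GOAT KO), beside 2.85% of all genes tested. By edgeR, DESeq2 and limma-voom alike 0 passed an adjusted p under 0.05 and 1 was called, and 6 had an unadjusted p under 0.05 in the edgeR test, beside 4.62% of all genes tested, 3 from the list of matrix partners and 3 from the list of responsive genes, each higher in GOAT KO. The number called depended on single libraries: it was 4 without WT 1118, 3 without WT 1120, 5 without WT 1121, 2 without GOAT KO 1139 and 5 without GOAT KO 1140. The number called over all genes moved as well. It was 382, 866, 504, 563 and 510 in these fits, in the same order, against 473 with all 8 libraries.

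None of the 17 tested genes of the SMAD pathway (receptor partners, SMADs and their regulators) was called, and 0 had an unadjusted p under 0.05. Their median log2 fold change was -0.016, with 7 above 0 and 10 below. The receptor-activated *Smad2* (-0.026, SE 0.068) and *Smad3* (0.047, SE 0.074), the common partner *Smad4* (0.00058, SE 0.055) and the inhibitory *Smad7* (-0.053, SE 0.107) lay near 0.

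None of the 14 tested genes for activation of latent TGF-β was called either, and their median was -0.050, with 2 above 0 and 12 below. *Furin*, the protease that cleaves the propeptide, had a log2 fold change of -0.100 (SE 0.061). *Itgav*, the subunit shared by the αv integrins that pull on the latent complex, had 0.0036 (SE 0.116), and *Thbs1*, an activator of the latent complex, had -0.073 (SE 0.207). With 6 libraries the gelatinase *Mmp9* was called lower (-0.75), beside 4.77% of all genes tested. Its level was 1.51 ± 0.476 CPM in WT, against 1.052 ± 0.203 CPM in GOAT KO over all 8 libraries.

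Microfibril and matrix partners, to which LTBPs attach, had a median log2 fold change of 0.078, with 17 of 24 genes above 0 and 0 called. With 6 libraries the median was 0.0043. *Fbn1*, the main microfibril protein, had 301, 299, 293 and 387 CPM in the 4 WT libraries, and 356, 318, 365 and 424 CPM among those labelled GOAT KO. WT 1121 overlapped with GOAT KO, and the log2 fold change was 0.19 (SE 0.107, edgeR unadjusted p = 0.0992). A further 3 genes had an unadjusted p under 0.05 with folds short of the rule, of which *Fbln2* and *Loxl1* are named after their values were seen: the fibulin *Fbln2* (0.29, SE 0.102), fibronectin *Fn1* (0.24, SE 0.101) and the elastin cross-linking enzyme *Loxl1* (0.22, SE 0.082). With 6 libraries these were 0.25, 0.14 and 0.11, and none of the 3 kept an unadjusted p under 0.05.

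Genes that respond to TGF-β in many cells had a median of 0.097, with 13 of 17 above 0, and of 0.046 with 6 libraries. *Col1a1*, which encodes the main chain of type I collagen, had 438, 433, 381 and 374 CPM in the 4 WT libraries, and 550, 434, 556 and 540 CPM among those labelled GOAT KO. GOAT KO 1140 lay below the highest WT library, and the other 3 lay above all of WT. The log2 fold change was 0.36 (SE 0.090, edgeR unadjusted p = 0.00238 and adjusted p = 0.983), and it was 0.30 with 6 libraries, where it was not called. A further pair of collagens, named after their values were seen, had folds short of the rule: *Col1a2* (0.28, SE 0.081) and *Col3a1* (0.26, SE 0.084), with 0.27 and 0.17 in 6 libraries. With 6 libraries the cell cycle inhibitor *Cdkn1a* was called lower (-0.45), beside 4.77% of all genes tested.

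**Figure D5:**
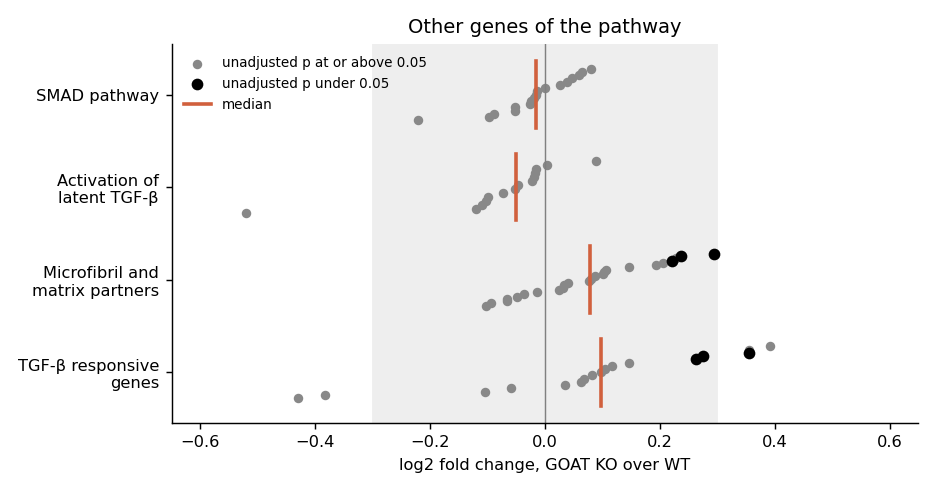
Log2 fold change of GOAT KO over WT (x axis) of the tested genes of the 4 pathway lists, 1 point per gene, with the median of each list as an orange line and the band of -0.3 to 0.3 shaded. Black points have an unadjusted p under 0.05 from edgeR's test: 3 matrix partners and 3 collagens, all to the right of 0, while the SMAD list (median -0.016) and the activation list (median -0.050) hold none.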

How the data were processed

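Ovaries of 8 mice were profiled by RNA sequencing, 4 labelled WT and 4 labelled GOAT KO. The authors aligned the reads to mm10 (GRCm38), and the submitters' processing notes name TopHat2 2.0.14 and StringTie 1.0.4. The deposited values used here are raw counts of reads per gene symbol, not normalized, and counts of reads per splice junction and library. The counting tool and its use of strand are not given in the sources used here, so genes that overlap others cannot be separated. The deposited mapping summaries and assembled transcripts were not used.

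Counts were scaled by TMM, filtered with filterByExpr (minimum count 10, minimum total 15) and tested with edgeR 4.0.16 (R 4.3.3) by the quasi-likelihood test over all genes, with Benjamini-Hochberg adjustment. The script was tested on simulated data. The SE is of the log2 fold change. Positions, exon lengths and introns came from GENCODE M21 (GRCm38), promoters from RefSeq. Junctions with at least 20 reads were paired by a shared donor or acceptor. Single values were compared by exact permutation in Python 3.11.15 with NumPy 2.4.6. Alternatives were RLE size factors, DESeq2 1.42.0, limma-voom (limma 3.58.1), no filter, 6 libraries, leaving out each library, and longest transcript lengths. The study left out 1 library of each group, and all 8 are the main set here.

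The 10 genes and all lists were chosen with earlier results of these data known. Named are the 10 genes, called genes of the pathway lists, *Fbn1*, *Fn1*, *Smad2*, *Smad3*, *Smad4*, *Smad7*, *Furin*, *Itgav*, *Thbs1*, *Mboat4* and the 5 genes most like *Ltbp1*. One further gene of the rule is not reported here. *Lyz2*, *Adgre1*, *Fshr*, *Hsd17b1*, *Amh*, *Foxl2*, *Cyp17a1*, *Star*, *Fbln2*, *Loxl1*, *Col1a2* and *Col3a1* are named outside this rule, chosen after their values were seen. *Lhcgr*, *Nr5a1*, *Cyp11a1*, *Hsd3b1* and *Insl3* are named to complete the list of theca and steroidogenic markers. The depth of 16147216 to 19481798 counts leaves *Mboat4* with large counting error. Other marker lists covered theca and steroidogenic cells (2182 to 3371 CPM), endothelium (265 to 329 CPM), ovarian surface epithelium (109 to 151 CPM), striated muscle (1.85 to 2.87 CPM) and blood (146 to 591 CPM).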

Additional observations from a re-analysis of the deposited data

Results flagged for a closer look

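In groups of 4, a library was singled out where its gap to the nearest other library exceeded Dixon's critical share of the range of the group. Of 40 groups examined (20 genes in 2 groups) 2 were singled out, and chance gives about 1 in 20. *Ltbp4* in GOAT KO 1140 had 257.3 CPM, below the other GOAT KO libraries at 284.5 to 287.6 CPM. *Fbn1* in WT 1121 had 387.1 CPM, above the other WT libraries at 293.3 to 300.9 CPM.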

How the results depend on the processing

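The number of genes called, 473 with all 8 libraries, was 918 without a filter on low counts, 793 with 6 libraries and 382 to 866 over the fits that left out 1 library (866 without WT 1120). At an adjusted p under 0.05, 4 genes passed, against 13 with DESeq2, 7 without a filter, 20 with 6 libraries and 3 to 14 when 1 library was left out (14 without GOAT KO 1139). Of the pathway lists, 1 gene was called, against 2 without a filter, 2 with 6 libraries and 1 to 5 when 1 library was left out. The log2 fold change of *Ltbp1* ran from 0.35 to 0.45 and that of *Tgfb1* from -0.35 to -0.20 over all 13 alternatives.

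With longest transcript lengths, the log2 ratio of *Tgfb2* over *Tgfb1* turned to -0.38 (0.41 with merged exons), since the lengths change from 5.79 and 5.04 kb to 5.12 and 2.57 kb. *Tgfbr1* over *Tgfbr3* (log2 ratio 0.21) lost its call with 6 libraries (0.13) and when 1 of 6 of the libraries was left out, with 0.17 to 0.24 over the 8 such fits. *Tgfbr3* over *Tgfbr2* (1.37) had an adjusted p of 0.0625 with 6 libraries (1.42), where the exact test has fewer libraries. The difference in the junction share of *Ltbp3*, -1.71 percentage points, was 1.89 without WT 1119 and -3.51 to 1.89 over all alternatives. Counting unlisted junctions as 0, an alternative chosen after seeing the data together with the refits of the level ratios, gave 27 pairs, of which 0 passed an adjusted p under 0.05. The smallest p that this permutation test can give is 0.0286. No pair could therefore pass on its own after adjustment over 27 pairs, and nothing is read from this count.

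No paired analysis was possible because the labels give no litter or other number that the groups share.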
